A study of Mus musculus with 18 samples.

Results

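The 10 genes described here mark macrophages and monocytes or a state of these cells, and they were followed over 18 mouse mammary tumors: Csf1r, Adgre1, Cd68, Mrc1, Cd163, Trem2, Arg1, Cx3cr1, Ccr2 and Gpnmb. They were taken by symbol, are 10 of the 55450 genes in the deposited tables, and all 10 passed the filter on low counts that left 18494 genes. RNA came from spontaneous mammary gland tumors of untreated mice, each from its own animal per the series design. The groups were 14 Cbfb(het) tumors, 1 Cbfb(homo) tumor and 3 Cbfb(wt) tumors. All 18 mice carried MMTV-Cre(+), a transgene used to express Cre recombinase in mammary epithelium. Whether other cells, macrophages among them, also expressed Cre was not tested. The mice also carried 1 Pik3ca allele with the activating H1047R change, which the labels write "Pikca". How the Cbfb gene was altered is not described in the labels, nor are age, strain and batch. RNA was measured in whole tumors, so the number of macrophages, the level of a transcript in each macrophage and transcripts from other cells cannot be told apart.

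Macrophages in a tumor come from monocytes that leave the blood and from cells already resident in the tissue. The ligands Csf1 and Il34 keep both kinds alive through the receptor that Csf1r encodes, and Ccl2 and related ligands draw monocytes in through the receptor that Ccr2 encodes. Once in the tissue, macrophages take up different states: scavenger receptors such as those of Mrc1 and Cd163 are known from resident, matrix-clearing cells, Trem2 and Gpnmb from cells that handle lipid and debris, and Arg1 from cells that break down arginine. Several of the 10 genes are also known outside macrophages: Arg1 in neutrophils and epithelium, Gpnmb in melanocytes and osteoclasts, and Cx3cr1 in natural killer cells.

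The tumors had between 33210239 and 40974166 expected counts each after rounding. Epcam, an adhesion gene of epithelial cells, set 5 tumors apart from the other 13. On the TPM scale, which corrects for the length of a gene and for the depth of a library, Epcam was 26.4 in Cbfb(het) 10, 27.2 in Cbfb(het) 14, 75.1 in Cbfb(het) 1, 133 in Cbfb(het) 12 and 5.60 in Cbfb(wt) 2, and between 331 and 666 in the other 13. The same 5 tumors had 2771 to 3846 TPM of the mesenchymal gene Vim, against 135 to 827 TPM in the 13 high-Epcam tumors. The libraries of Cbfb(het) 10 and 14 were nearly alike: their counts differed with a chi-square of 4.18 per degree of freedom, against 85.9 or more for each of the 152 other pairs. They differed beyond sampling noise and were kept as 2 samples, since the series design gives each tumor its own mouse; whether these 2 are independent was not tested, and it bears on every n that counts both. The tests against genotype, Epcam and Csf1r were also run without each of them, while the ratio SDs, the list counts over all tumors and the likeness values below include both.

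Per GENCODE M21 on the GRCm38 build, all 10 are protein-coding genes. The coordinates are chr17:57358691-57483527 for Adgre1, chr11:69664213-69666153 for Cd68, chr2:14229392-14332057 for Mrc1 and chr6:124304656-124330527 for Cd163. They are chr17:48346401-48354147 for Trem2, chr10:24915221-24927484 for Arg1, chr9:119901616-120069879 for Cx3cr1, chr9:124101950-124113557 for Ccr2 and chr6:49036546-49070929 for Gpnmb. Cd68, Arg1 and Cx3cr1 lie on the minus strand and the others on the plus strand.

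The promoters shown are those of the 5 members that were called with a positive r to Csf1r over the 18 tumors and had a sequence at hand, in the order of that r, and that of Gpnmb, which was not called. RefSeq sequence of GRCm38.p6 from 250 bases before to 50 after the gene start was at hand for 7 of the 10 members, without Csf1r, Adgre1 and Arg1. Capitals mark the ETS core searched for, GAGGAA or its reverse complement TTCCTC, which the myeloid factor encoded by Spi1 is known to bind, and the AP-1 site, TGACTCA or TGAGTCA. The windows are chr9:124101933-124102232 on the plus strand for Ccr2, chr17:48346151-48346450 on the plus strand for Trem2, chr2:14229164-14229463 on the plus strand for Mrc1, chr9:120068247-120068546 on the minus strand for Cx3cr1, chr11:69666121-69666420 on the minus strand for Cd68 and chr6:49036268-49036567 on the plus strand for Gpnmb. Each sequence is written 5′ to 3′ on the strand of its gene.
Ccr2 promoter: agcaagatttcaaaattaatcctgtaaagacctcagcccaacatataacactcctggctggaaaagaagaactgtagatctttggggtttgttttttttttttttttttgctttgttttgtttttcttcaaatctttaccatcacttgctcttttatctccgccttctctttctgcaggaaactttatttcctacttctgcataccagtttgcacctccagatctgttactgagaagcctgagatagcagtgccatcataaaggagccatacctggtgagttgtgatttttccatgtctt
Trem2 promoter: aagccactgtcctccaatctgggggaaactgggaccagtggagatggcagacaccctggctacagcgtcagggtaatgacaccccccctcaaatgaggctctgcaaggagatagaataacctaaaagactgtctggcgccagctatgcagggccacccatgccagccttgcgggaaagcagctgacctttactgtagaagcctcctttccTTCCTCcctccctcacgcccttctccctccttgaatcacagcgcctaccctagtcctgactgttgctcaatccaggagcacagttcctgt
Mrc1 promoter: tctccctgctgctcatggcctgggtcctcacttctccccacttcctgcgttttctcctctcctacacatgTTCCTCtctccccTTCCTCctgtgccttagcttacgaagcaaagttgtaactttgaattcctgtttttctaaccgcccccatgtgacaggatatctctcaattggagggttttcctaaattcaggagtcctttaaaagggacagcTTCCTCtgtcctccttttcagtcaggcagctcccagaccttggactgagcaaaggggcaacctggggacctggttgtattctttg
Cx3cr1 promoter: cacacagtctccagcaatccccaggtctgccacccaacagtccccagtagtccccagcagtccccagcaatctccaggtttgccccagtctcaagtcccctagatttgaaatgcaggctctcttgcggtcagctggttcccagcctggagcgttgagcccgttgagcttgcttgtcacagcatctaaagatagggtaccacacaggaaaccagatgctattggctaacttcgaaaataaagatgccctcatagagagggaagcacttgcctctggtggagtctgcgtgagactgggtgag
Cd68 promoter: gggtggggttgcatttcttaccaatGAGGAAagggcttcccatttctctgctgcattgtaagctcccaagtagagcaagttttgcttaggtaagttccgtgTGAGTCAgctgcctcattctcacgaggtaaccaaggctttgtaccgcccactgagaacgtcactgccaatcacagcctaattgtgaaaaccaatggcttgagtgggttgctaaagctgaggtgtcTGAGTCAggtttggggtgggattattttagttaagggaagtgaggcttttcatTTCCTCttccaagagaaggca
Gpnmb promoter: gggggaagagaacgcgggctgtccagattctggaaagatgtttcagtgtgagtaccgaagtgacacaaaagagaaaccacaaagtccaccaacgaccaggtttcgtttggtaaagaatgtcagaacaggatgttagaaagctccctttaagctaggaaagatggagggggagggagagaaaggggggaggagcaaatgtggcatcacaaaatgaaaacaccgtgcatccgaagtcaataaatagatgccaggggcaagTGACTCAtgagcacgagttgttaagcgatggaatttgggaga
The ETS core stood in 3 of the 7 member promoters, those of Cd68, Mrc1 and Trem2, and in 28.3% of 32851 mouse promoters of the same length. The promoters of Ccr2 and Cx3cr1, which also followed Csf1r, held none. The AP-1 site stood in 2 of 7, those of Cd68 and Gpnmb, and in 5.20% of all promoters. Of the E-box motifs, CACGTG was in 0 of 7 and in 7.15% of all promoters, and CATGTG or CACATG was in 1 of 7, that of Mrc1, and in 14.2% of all. Both strands were searched, no 2 matches in a member's window overlapped, and the windows of Cd163, Cx3cr1 and Ccr2 held none of these letters.

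Csf1r, the receptor for Csf1 and Il34, was high in 3 of the 5 low-Epcam tumors and not in the other 2. Its level was 13.8 TPM at the lowest, 49.2 TPM at the median and 280.1 TPM at the highest of the 14 Cbfb(het) tumors, and it was 58.3 TPM in the Cbfb(homo) tumor and 28.6, 313 and 41.4 TPM in Cbfb(wt) 1, 2 and 3. The 3 highest values were 154 TPM in Cbfb(het) 1, 280.1 TPM in Cbfb(het) 12 and 313 TPM in Cbfb(wt) 2, and the other 15 tumors lay between 13.8 and 61.9 TPM. Cbfb(het) 10 and 14, at 50.1 and 49.1 TPM, lay inside that range although their Epcam was low. The Cbfb(het) and Cbfb(wt) groups overlapped. Csf1r lies on the plus strand of chromosome 18, and 873 of its exonic bases overlap exons of Hmgxb3 on the other strand. Hmgxb3 averaged 13.3 TPM, the strand setting of the authors' counting is not given in the sources used here, and its part in the Csf1r values was not tested.

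Adgre1, which encodes the F4/80 surface protein of mouse macrophages, had the same 3 tumors at the top. It was 58.3 TPM in Cbfb(het) 1, 102.7 TPM in Cbfb(het) 12 and 108.2 TPM in Cbfb(wt) 2, against 5.36 to 33.5 TPM in the other 15 tumors. By group, the Cbfb(het) tumors had a lowest value of 5.36, a median of 15.7 and a highest of 102.7 TPM, the Cbfb(homo) tumor had 23.8 TPM, and Cbfb(wt) 1, 2 and 3 had 13.5, 108.2 and 18.3 TPM. Cd68, a gene of lysosomal membranes that is high in phagocytes, had its highest level in Cbfb(het) 1 instead. It spanned 34.6 to 344 TPM in Cbfb(het) tumors, with a median of 97.6 TPM, and was 122 TPM in the Cbfb(homo) tumor and 74.6, 196 and 95.5 TPM in Cbfb(wt) 1, 2 and 3. Cd68 was 139 TPM or more in all 5 low-Epcam tumors and 34.6 to 136 TPM in the 13 high-Epcam tumors. These 2 sets lay close, with 138.66 TPM in Cbfb(het) 14 and 136.18 TPM in Cbfb(het) 13. How many of all genes separate the same tumors was not counted.

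Among the chemokine receptors, Ccr2 and Cx3cr1 parted in Cbfb(het) 1. Ccr2, which guides monocytes to Ccl2, was 24.8 TPM in Cbfb(het) 1, 65.6 TPM in Cbfb(het) 12 and 54.4 TPM in Cbfb(wt) 2, above the 0.90 to 17.5 TPM of the other 15 tumors. Its lowest, median and highest values were 0.90, 4.26 and 65.6 TPM in Cbfb(het) tumors, the Cbfb(homo) tumor had 5.84 TPM, and Cbfb(wt) 1, 2 and 3 had 2.46, 54.4 and 1.80 TPM. Cx3cr1, the receptor for the ligand that Cx3cl1 encodes, was 140.6 TPM in Cbfb(het) 12 and 133 TPM in Cbfb(wt) 2, but 18.2 TPM in Cbfb(het) 1. No other tumor exceeded the 29.4 TPM of Cbfb(het) 13, a high-Epcam tumor. The Cbfb(het) tumors had a Cx3cr1 range of 4.84 to 140.6 TPM and a median of 15.2 TPM, the Cbfb(homo) tumor had 19.1 TPM, and Cbfb(wt) 1, 2 and 3 had 13.5, 133 and 23.6 TPM.

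The scavenger receptor genes were also high in Cbfb(het) 3, whose Epcam was high. Mrc1, which encodes the mannose receptor, was 77.7 TPM in Cbfb(het) 1, 59.5 TPM in Cbfb(het) 12, 105.0 TPM in Cbfb(wt) 2 and 55.7 TPM in Cbfb(het) 3. The rest lay between 2.20 and 26.6 TPM, with a median over all 14 Cbfb(het) tumors of 18.2 TPM, 8.41 TPM in the Cbfb(homo) tumor, and 4.15 and 3.77 TPM in Cbfb(wt) 1 and 3. Cd163, the receptor that takes up hemoglobin bound to haptoglobin, had the lowest mean of the 10 genes on the TPM scale, though Ccr2 was lower in Cbfb(het) 10 and 14 and Cx3cr1 in Cbfb(het) 3. It reached 14.1 TPM in Cbfb(het) 3, then 6.48 TPM in Cbfb(het) 10 and 6.07 TPM in Cbfb(het) 14, and was 1.99 TPM in Cbfb(het) 1, 2.82 TPM in Cbfb(het) 12 and 3.05 TPM in Cbfb(wt) 2. The Cbfb(het) tumors ranged from 0.18 TPM with a median of 2.47 TPM, the Cbfb(homo) tumor had 2.29 TPM, and Cbfb(wt) 1 and 3 had 1.29 and 0.57 TPM.

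Trem2, a receptor for lipids, had the narrowest range of the 10 genes, 7.68-fold on the TPM scale. Its values were 18.9 at the lowest, 42.8 at the median and 85.3 TPM at the highest in Cbfb(het) tumors, 52.9 TPM in the Cbfb(homo) tumor, and 19.3, 145 and 43.1 TPM in Cbfb(wt) 1, 2 and 3. The same 3 tumors were highest, but the third, Cbfb(het) 1 at 67.4 TPM, lay close to the high-Epcam tumor Cbfb(het) 5 at 61.5 TPM. Gpnmb, a glycoprotein gene of macrophages that clear debris, was low in the 3 tumors of high Csf1r. It was 20.2 TPM in Cbfb(het) 1, 7.95 TPM in Cbfb(het) 12 and 5.89 TPM in Cbfb(wt) 2, and its highest values were 220.1 TPM in Cbfb(het) 11, 206 TPM in Cbfb(het) 10 and 189 TPM in Cbfb(het) 14. Between them lay the Cbfb(het) median of 67.3 TPM, the Cbfb(homo) tumor at 82.8 TPM and Cbfb(wt) 1 and 3 at 22.1 and 92.5 TPM. The high-Epcam tumors Cbfb(het) 3, Cbfb(het) 8 and Cbfb(wt) 1 had levels close to that of Cbfb(het) 1, from 19.0 to 22.4 TPM.

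Arg1, which encodes arginase 1, had the widest range of the 10 genes, 91.7-fold on the TPM scale. It was 27.0 TPM in Cbfb(het) 1, 13.6 TPM in Cbfb(het) 12 and 28.8 TPM in Cbfb(wt) 2, the 3 lowest values, and 1245 TPM in Cbfb(het) 13. The Cbfb(het) median was 186 TPM, the Cbfb(homo) tumor had 488 TPM, and Cbfb(wt) 1 and 3 had 179.8 and 199.7 TPM. Next above the 3 lowest came the high-Epcam tumor Cbfb(het) 5 at 50.8 TPM and the low-Epcam tumors Cbfb(het) 14 and 10 at 95.1 and 100.1 TPM. For all 10 genes the Cbfb(homo) tumor lay inside the range of the other 17 tumors.

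**Figure D1:**
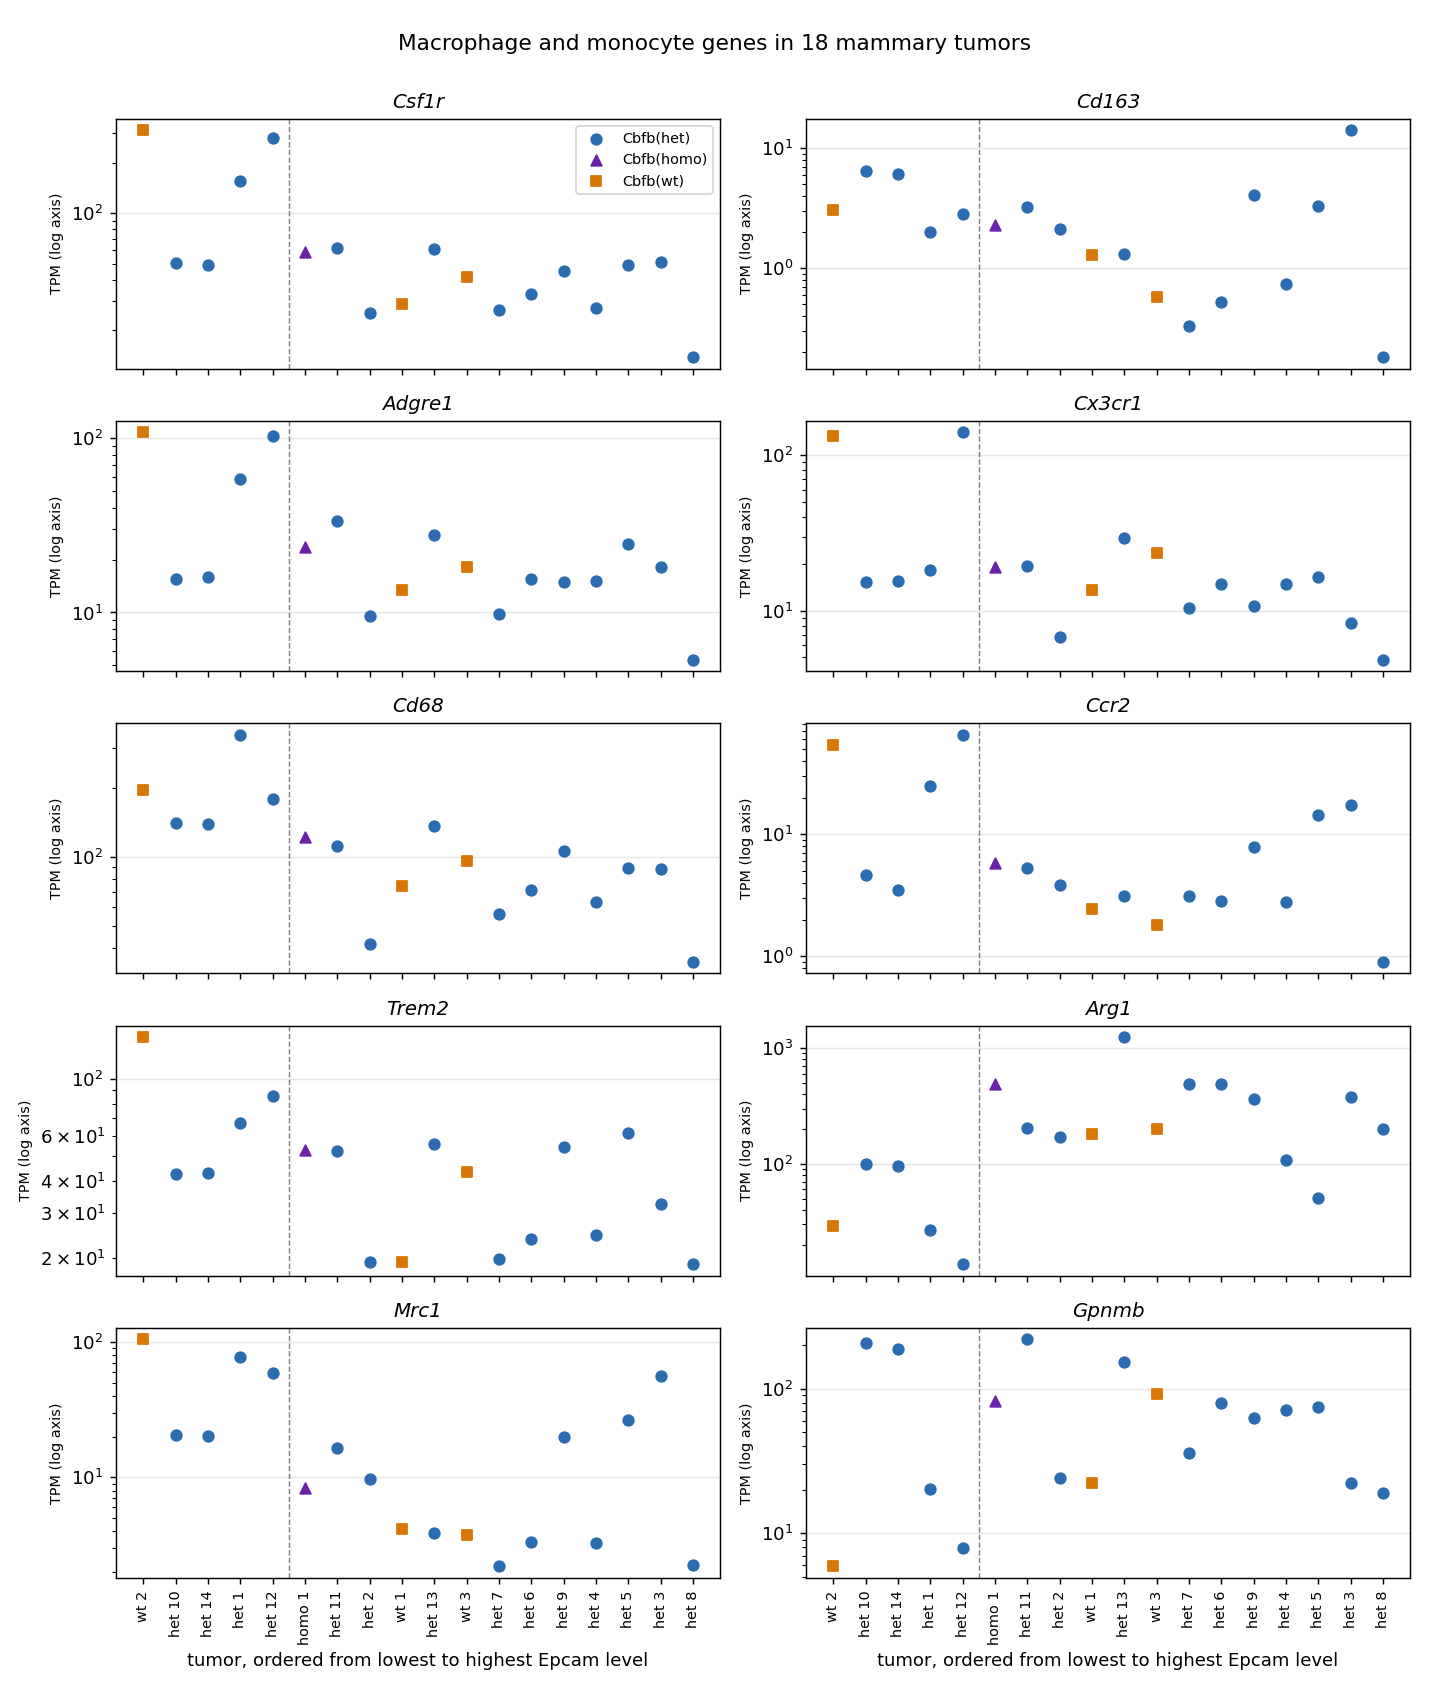
Level of each of the 10 genes in TPM on a log axis, 1 point per tumor, ordered from the lowest to the highest log2 CPM of Epcam, with circles for Cbfb(het), triangles for Cbfb(homo) and squares for Cbfb(wt). The dashed line separates the 5 low-Epcam from the 13 high-Epcam tumors: Csf1r, Adgre1 and Ccr2 are highest in Cbfb(het) 1, Cbfb(het) 12 and Cbfb(wt) 2, where Arg1 is lowest.

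The relation to Epcam was computed with Pearson's r and Spearman's rho on log2 CPM, counts scaled to library size by TMM, a method that evens out library composition, on the log2 scale. Each had a two-sided permutation test with 100000 resamples, adjusted over all genes by the Benjamini-Hochberg method. Cbfb(wt) 2 lay 2.39 below the next tumor on the log2 scale of Epcam and was left out as standing apart, so 17 tumors entered. Over them 39.3% of 18493 genes had an adjusted p under 0.05 for Pearson's r and were called, 18.6% with a negative r and 20.7% with a positive one, and 23.1% were called on Spearman's rho. Of the 10 members, 2 were called on r and 0 on rho, a smaller share than over all genes. Cd68 had r = -0.68 (permutation, adjusted p = 0.0136; rho = -0.60, adjusted p = 0.0514), and Arg1 had r = 0.57 (permutation, adjusted p = 0.0453; rho = 0.41, adjusted p = 0.207). Csf1r had r = -0.50 (permutation, adjusted p = 0.0803), and the other 7 lay between r = -0.55 for Mrc1 and r = -0.11 for Gpnmb. The median r was -0.35 over the members and 0.03 over all genes.

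Within the 13 high-Epcam tumors Epcam spanned only 8.38 to 9.51 on the log2 CPM scale, against 4.84 to 9.51 over the 17 tumors. With that narrow range and fewer tumors, the test cannot decide whether the relations to Epcam hold among them. By either measure 0 of 18492 genes were called within the 13, although 3954 had an unadjusted permutation p under 0.05 by Pearson's r. There the members lay between r = -0.37 for Gpnmb and r = 0.03 for Ccr2, with -0.33 for Cd68 and -0.09 for Arg1. Without the 2 tumors farthest from the median Epcam level, which were Cbfb(het) 10 and 14, 6 members were called by Pearson's r, beside 23.8% of all genes: Csf1r at -0.87, Adgre1 at -0.81, Cd68 at -0.80, Mrc1 at -0.67, Ccr2 at -0.65 and Arg1 at 0.74. In the 15 tumors left, only Cbfb(het) 1 and 12 had low Epcam, and by Spearman's rho 0 members were called beside 5.03% of all genes.

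More members were called against Csf1r, but not over the same tumors. Cbfb(wt) 2, left out above for its Epcam level, entered here and had the highest Csf1r level. The counts against Epcam and Csf1r therefore do not show which relation was closer. Over all 18 tumors, 7 of the other 9 members were called by Pearson's r, 6 positive and 1 negative, while 23.2% of 18493 genes were called, 11.5% positive and 11.7% negative. On log2(TPM + 1) the same 18 tumors gave 26.0% positive of 29.3% called. Adgre1 had r = 0.97, Ccr2 0.88, Trem2 0.87 and Mrc1 0.86, each with a permutation p of 1e-05, the smallest that the resamples can give, and an adjusted p of 0.000774. Cx3cr1 had r = 0.84 (permutation, adjusted p = 0.00531) and Cd68 had r = 0.79 (permutation, adjusted p = 0.00306). Arg1 had r = -0.74 (permutation, adjusted p = 0.0106). Cd163 had r = 0.41 (permutation, adjusted p = 0.199) and Gpnmb r = -0.57 (permutation, adjusted p = 0.0555), and neither was called. By Spearman's rho 5 members were called, beside 5.87% of all genes: rho was 0.91 for Adgre1, 0.86 for Trem2, 0.85 for Ccr2, 0.81 for Mrc1 and 0.79 for Cd68. Cx3cr1, with rho = 0.59 (permutation, adjusted p = 0.0985), and Arg1, with rho = -0.42 (permutation, adjusted p = 0.270), were not.

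Without the 2 tumors farthest from the median Csf1r level, Cbfb(het) 12 and Cbfb(wt) 2, the calls of Adgre1, Cd68, Mrc1, Trem2 and Ccr2 held, with r from 0.76 to 0.92, beside 3.68% of all genes. Cx3cr1 then had r = 0.42 (permutation, adjusted p = 0.321) and Arg1 r = -0.48 (permutation, adjusted p = 0.256), so their calls rested on these tumors. Within the 13 high-Epcam tumors, a choice made after seeing the data, 0.335% of genes were called and Adgre1 was the only member among them (r = 0.93, permutation, adjusted p = 0.0274). Adgre1 was no longer called without the 2 of these tumors farthest from their median (r = 0.89, permutation, adjusted p = 0.136), where 0.0433% of genes were. Cd68 had r = 0.85, Trem2 0.83, Mrc1 0.74, Cd163 0.73 and Ccr2 0.68 in the 13 tumors. Arg1 had r = 0.04 there, and Gpnmb had r = 0.58 where it had a negative r over 18 tumors. Within these tumors the median r was 0.73 over the 9 members and -0.02 over all genes.

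**Figure D2:**
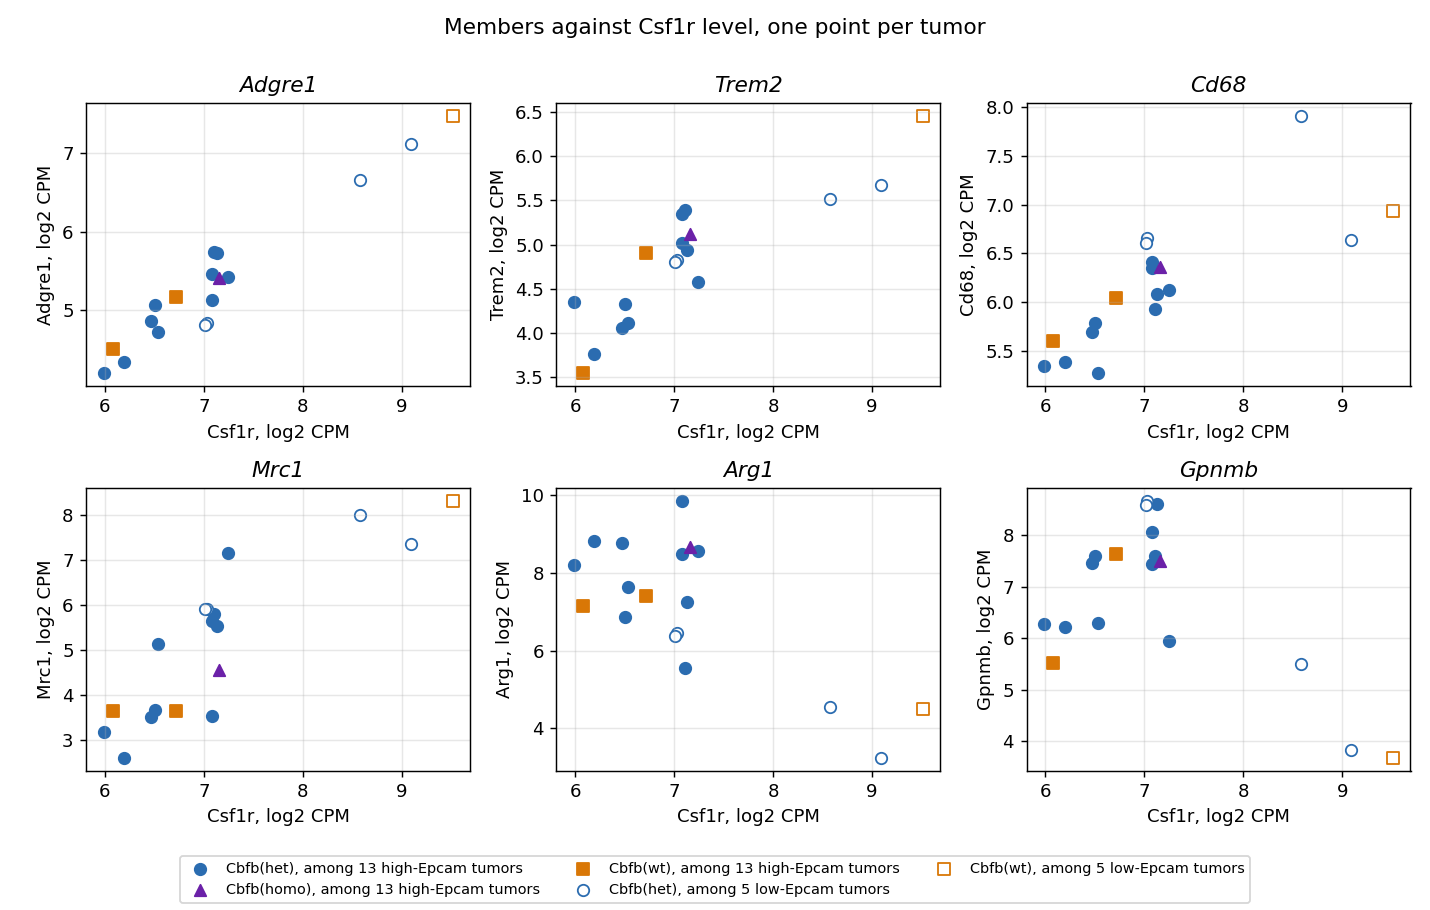
Level of 6 members against Csf1r, both in log2 CPM, 1 point per tumor, with filled symbols for the 13 high-Epcam and open symbols for the 5 low-Epcam tumors. Adgre1 follows Csf1r over the whole range (r = 0.97 over 18 tumors), while the negative r of Arg1 and Gpnmb comes with the 3 open points at the highest Csf1r levels.

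**Figure D3:**
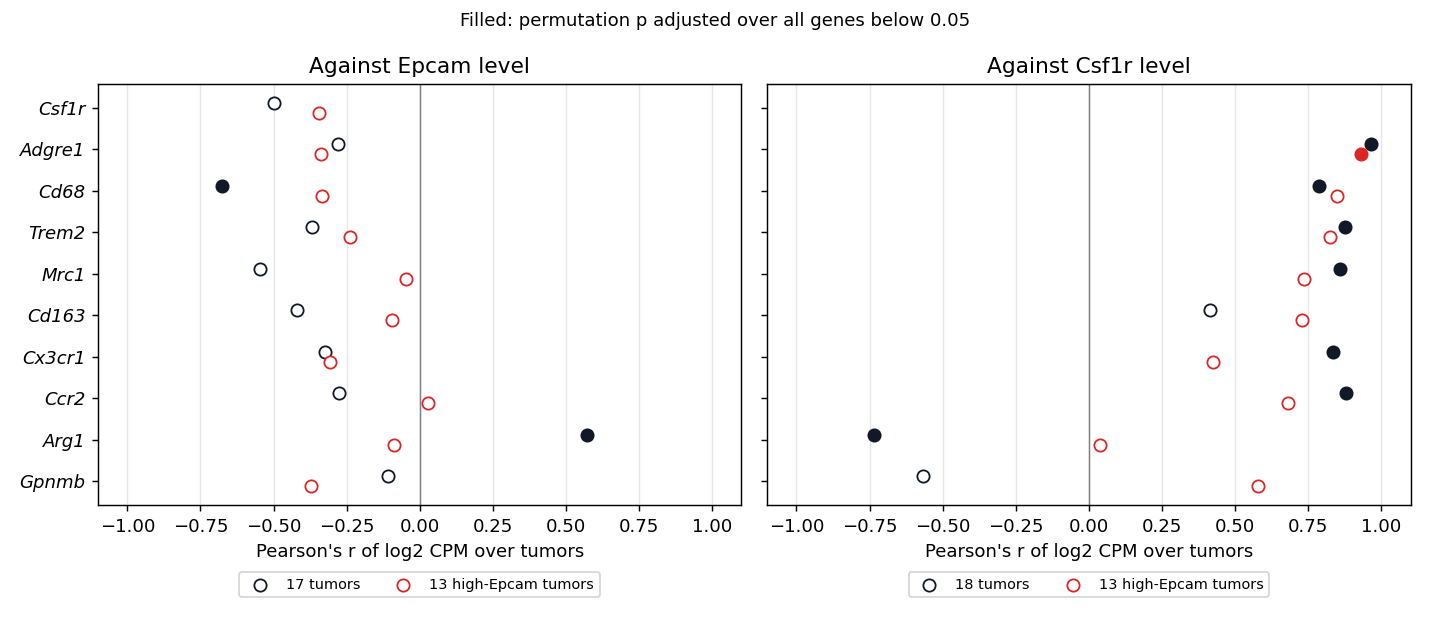
Pearson's r of each member with Epcam (left) and with Csf1r (right) over tumors, in black for 17 or 18 tumors and in red for the 13 high-Epcam tumors, with filled points where the permutation p adjusted over all genes is below 0.05. Cd68 and Arg1 are filled on the left, 7 members are filled on the right in black, and only Adgre1 is filled in red.

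The TPM of a member divided by that of Csf1r in the same tumor shows how far each kept to Csf1r. On the log2 scale the ratio of Adgre1 varied least, with an SD of 0.26 over the 18 tumors, and Adgre1 was 0.309 to 0.562 of the Csf1r level. The SD was 0.55 for Trem2, 0.60 for Cx3cr1, 0.62 for Cd68 and 0.83 for Ccr2. It was 1.13 for Mrc1, 1.48 for Cd163, 2.28 for Gpnmb and 2.60 for Arg1. Cd68 was 1.64 to 2.61 times the Csf1r level in the 13 high-Epcam tumors, 2.82 and 2.83 times in Cbfb(het) 10 and 14 and 2.22 times in Cbfb(het) 1, but 0.641 times in Cbfb(het) 12 and 0.627 times in Cbfb(wt) 2.

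Arg1 stood above Csf1r in every high-Epcam tumor, from 1.03 times in Cbfb(het) 5 to 20.5 times in Cbfb(het) 13. It was 1.998 times Csf1r in Cbfb(het) 10 and 1.94 times in Cbfb(het) 14, but 0.175 times in Cbfb(het) 1, 0.0485 times in Cbfb(het) 12 and 0.0919 times in Cbfb(wt) 2. Gpnmb was 4.11 and 3.86 times Csf1r in Cbfb(het) 10 and 14, the highest of all tumors, and 0.0284 times in Cbfb(het) 12 and 0.0188 times in Cbfb(wt) 2, the lowest. Mrc1 was 1.09 times Csf1r in Cbfb(het) 3 and 0.0643 times in Cbfb(het) 13, while both tumors had Csf1r between 50.9 and 60.8 TPM. Ccr2 was highest relative to Csf1r in Cbfb(het) 3, at 0.344 times, and Cx3cr1 was lowest in Cbfb(het) 1 and 3, at 0.118 and 0.163 times.

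**Figure D4:**
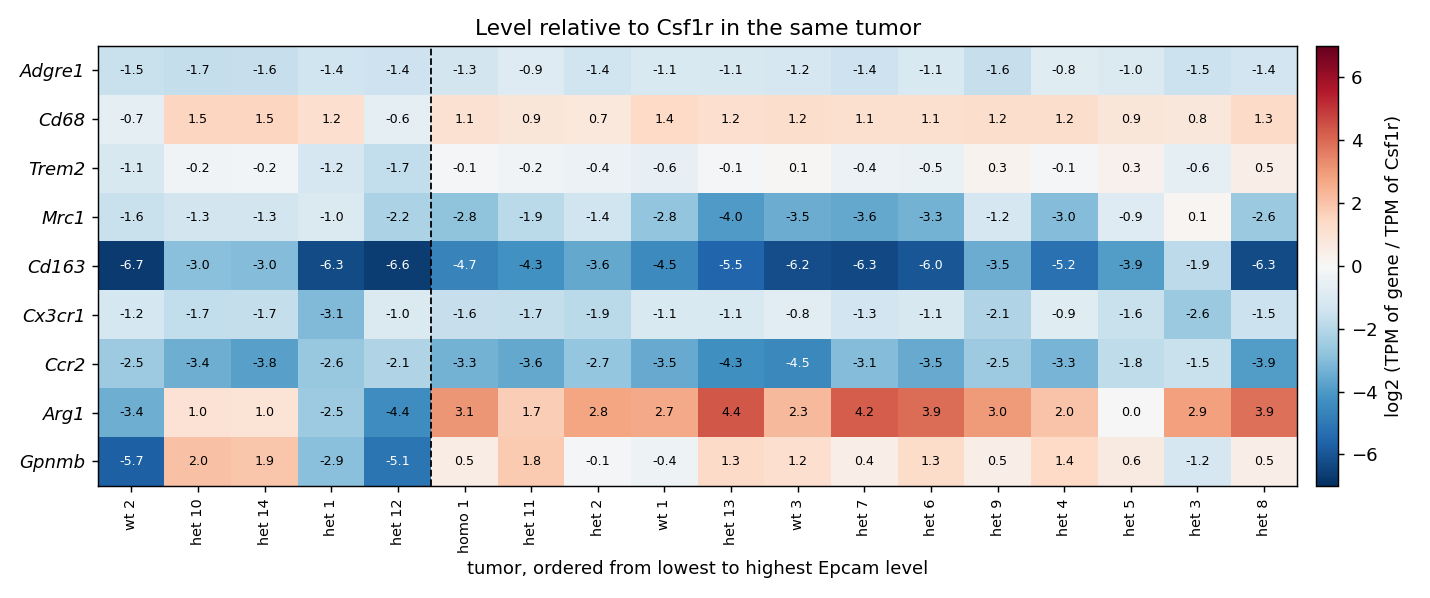
Log2 of the TPM of each member over the TPM of Csf1r in the same tumor, with tumors ordered from the lowest to the highest Epcam level and a dashed line after the 5 low-Epcam tumors. The top line, Adgre1, is nearly even (SD 0.26), while Arg1 and Gpnmb are lowest in Cbfb(het) 1, Cbfb(het) 12 and Cbfb(wt) 2.

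Relative to Csf1r, 1 of 9 members was called against Epcam over the 17 tumors by Pearson's r, beside 31.0% of all genes, which is 28.2% of all genes with a positive r and 2.84% with a negative one. That member was Adgre1, with r = 0.74 (permutation, adjusted p = 0.00720), and its rho was 0.47 (permutation, adjusted p = 0.156). Its ratio to Csf1r was 0.309 to 0.377 in the 5 low-Epcam tumors and 0.329 to 0.562 in the other 13. Arg1 had r = 0.59 (permutation, adjusted p = 0.0529) and rho = 0.47 (permutation, adjusted p = 0.155). The median r was 0.14 over the members and 0.44 over all genes. Without Cbfb(het) 10 and 14, the 2 tumors farthest from the median, Adgre1 had r = 0.46 (permutation, adjusted p = 0.103), while Arg1 at 0.84, Gpnmb at 0.80 and Trem2 at 0.72 were called beside 79.0% of all genes. Within the 13 high-Epcam tumors no member was called, 0 of 18492 genes were called by either measure, 2557 had an unadjusted permutation p under 0.05 by Pearson's r, and the r of Adgre1 was -0.09.

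By Cbfb genotype no member was called. With only 3 Cbfb(wt) tumors and a wide spread among them, the lack of calls does not decide whether the genotypes differ. On the log2 CPM scale Csf1r averaged 7.07 ± 0.85 in Cbfb(het) tumors and 7.44 ± 1.83 in Cbfb(wt) tumors (SD, n = 14 and 3). EdgeR's quasi-likelihood test over 18494 genes called 0.0% of them at an adjusted p under 0.05, with 624 genes at an unadjusted p under 0.05, and 0 of the 10 members. DESeq2 called 0 genes with 934 at an unadjusted p under 0.05, and limma-voom called 0 with 489. The log2 fold change of Cbfb(het) over Cbfb(wt) was -0.88 ± 0.62 for Csf1r, -0.76 ± 0.57 for Adgre1, 0.03 ± 0.45 for Cd68, -0.56 ± 0.44 for Trem2 and -1.25 ± 0.65 for Cx3cr1 (SE). It was -0.81 ± 1.00 for Mrc1, -0.69 ± 0.97 for Ccr2, 1.27 ± 1.05 for Cd163, 1.19 ± 1.02 for Arg1 and 1.08 ± 0.87 for Gpnmb (SE), and the adjusted p was 0.999 for each of the 10. The median was -0.63 over the members and 0.03 over all genes.

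One of the 3 Cbfb(wt) tumors set the sign of several of these differences. Without Cbfb(wt) 2, the tumor of lowest Epcam, the log2 fold change was 0.92 ± 0.70 for Csf1r, 0.67 ± 0.65 for Adgre1, 2.40 ± 1.33 for Mrc1, 2.41 ± 1.28 for Ccr2, 0.50 ± 0.47 for Trem2 and 0.26 ± 0.77 for Cx3cr1 (SE), all turned to positive. Cd68, Cd163, Arg1 and Gpnmb kept a positive sign, at 0.50, 2.22, 0.71 and 0.56, and no member was called. Within the 13 high-Epcam tumors, 10 Cbfb(het) and 2 Cbfb(wt) tumors could be compared, and no member was called. With only 2 Cbfb(wt) tumors in each of these settings, the lack of calls does not decide whether the genotypes differ. Relative to Csf1r, with limma on log2 CPM, the differences of Cbfb(het) minus Cbfb(wt) ran from -0.61 ± 0.53 for Cx3cr1 to 1.76 ± 1.32 for Gpnmb (SE). None of the 9 was called (adjusted p = 0.998 each), 0.0% of all genes were called, and 164 genes had an unadjusted p under 0.05.

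**Figure D5:**
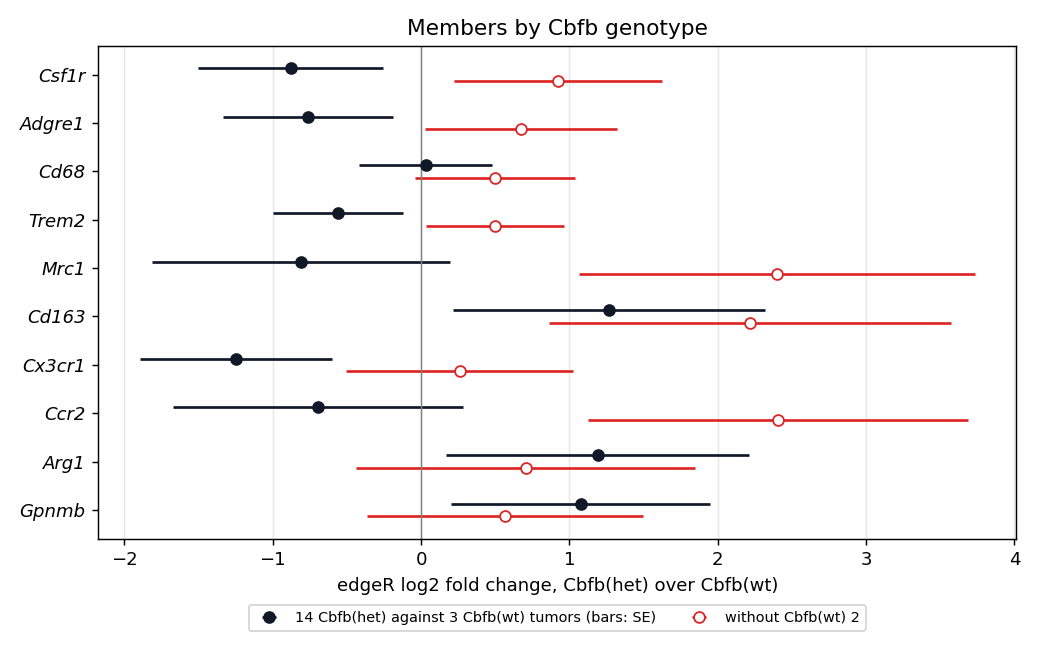
Log2 fold change of each member, Cbfb(het) over Cbfb(wt), with edgeR, for all 17 tumors (black) and without Cbfb(wt) 2 (red), with bars of 1 SE. Csf1r, Adgre1, Trem2, Mrc1, Cx3cr1 and Ccr2 are negative with all 17 tumors and positive without that 1 tumor.

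Most other genes of macrophages, listed with earlier results of these data known, were called with Csf1r over all 18 tumors, but few within the 13 high-Epcam tumors. Of 20 further macrophage and monocyte genes, 16 were called with a positive r over the 18 tumors and 0 with a negative one, with a median r of 0.85, against 11.5% positive over all genes and a median of -0.03. Within the 13 high-Epcam tumors 2 of the 20 were called, Laptm5 and Fcgr3, beside 0.335% of all genes. The median r there was 0.77 over the list. The Fc receptor genes Fcgr1 and Fcgr3 had r = 0.94 each, and C1qc, a complement gene of tissue macrophages, had r = 0.88. Genes outside the naming rule given below were named after their values were seen, among them Fcgr1, Fcgr3, C1qc, Laptm5, Csf1, Folr2, Lyve1, Ocstamp and C1qa. C1qa was found in every tumor, from 147 to 983 TPM. Its highest levels were 735 TPM in Cbfb(het) 1, 836 TPM in Cbfb(het) 12 and 983 TPM in Cbfb(wt) 2, with 735 TPM also in the high-Epcam tumor Cbfb(het) 5. The most abundant genes of this list were Apoe, a lipid carrier gene that many cells express, from 1027 TPM in Cbfb(het) 8 to 10172 TPM in the Cbfb(homo) tumor, and the lysozyme gene Lyz2, with 3872 TPM in Cbfb(wt) 2 and 1844 TPM or less elsewhere. Cd14, known from monocytes and also from epithelium, had r = -0.45 with Csf1r and r = 0.86 with Epcam over 17 tumors (permutation, adjusted p = 0.00105).

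Some ligand genes were high where their receptor genes were, and others were not. Csf1 was 67.5 TPM in Cbfb(het) 1, 149 TPM in Cbfb(het) 12 and 176 TPM in Cbfb(wt) 2, above the 18.2 to 54.2 TPM of the other 15 tumors, and had r = 0.85 with Csf1r (permutation, adjusted p = 0.00501). Il34, the other ligand gene of Csf1r, was 64.7 TPM in Cbfb(het) 12 and 76.5 TPM in Cbfb(wt) 2, but 15.5 TPM in Cbfb(het) 1, inside the 2.72 to 23.15 TPM of the other 15 tumors, and had r = 0.72 with Csf1r (permutation, adjusted p = 0.00850). Ccl2 was 188, 208 and 757 TPM in the same 3 tumors and 4.35 to 43.5 TPM in the others. Of 5 monocyte-attracting ligand genes tested, 3 were called with a positive r, Ccl2, Ccl7 and Ccl12, beside 11.5% of all genes. The median r was 0.78 over the 5. Within the 13 high-Epcam tumors 0 were called, with a median of 0.34. Ccl8 was highest in Cbfb(het) 3 and 5, at 855 and 733 TPM, and had r = 0.25 with Csf1r. Cx3cl1, the ligand gene for Cx3cr1, had r = 0.04 with Csf1r. It was highest in Cbfb(het) 14 and 10, at 121 and 118 TPM, where Cx3cr1 was 15.5 and 15.4 TPM, and was 50.9 TPM in Cbfb(wt) 2, where Cx3cr1 was 133 TPM.

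The monocyte list had 4 of 6 genes called with a positive r to Csf1r over 18 tumors, beside 11.5% of all genes. Within the 13 high-Epcam tumors it had 0, beside 0.335% of all genes in either direction. Ms4a4c, a gene of classical monocytes, was 66.5 TPM in Cbfb(het) 1 and 66.7 TPM in Cbfb(het) 12, against 1.86 to 24.5 TPM in the others. Vcan, a matrix proteoglycan gene, was 58.2 to 102 TPM in the 5 low-Epcam tumors and 2.64 to 31.3 TPM in the other 13. The 2 genes not called had other patterns: Plac8 was highest in Cbfb(het) 3 at 72.0 TPM, with 26.8 TPM in Cbfb(het) 12 and 15.4 TPM in Cbfb(wt) 2, and Chil3 was highest in Cbfb(het) 10 at 24.1 TPM, with 2.57 TPM in Cbfb(het) 12. The lipid-associated list, which holds genes known from Trem2-positive macrophages, did not follow Csf1r and had a median r of -0.44. Of its 8 genes 1 was called positive and 1 negative, beside 11.5% and 11.7% of all genes. Spp1, the gene for osteopontin, was the negative one at r = -0.65 (permutation, adjusted p = 0.0232), and it spanned 749 TPM in Cbfb(het) 12 to 35500.1 TPM in Cbfb(het) 4. Lpl, which encodes a lipase, was lowest in Cbfb(wt) 2 at 4.24 TPM and highest in Cbfb(het) 6 at 79.7 TPM, and Fabp5 was lowest in Cbfb(het) 1 at 246 TPM and highest in the Cbfb(homo) tumor at 6724 TPM. Spp1 and Fabp5 of this list are also known from mammary epithelium.

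Markers of other cells moved with the members, and their part in the values was not tested. Of 8 fibroblast and mesenchymal genes 7 were called with a positive r to Csf1r, and all 8 with a negative r to Epcam over 17 tumors, while 0 were called against Csf1r within the 13 high-Epcam tumors. Their summed level was 7889 to 17862 TPM in the 5 low-Epcam tumors and 277 to 3505 TPM in the other 13. The collagen genes were highest where Csf1r was not: Col1a1 peaked in Cbfb(het) 14 at 6685 TPM and Col3a1 in Cbfb(het) 10 at 5521 TPM. Of 6 dendritic cell genes 5 were called with a positive r to Csf1r, and 0 within the 13 high-Epcam tumors, with a summed level of 0.65 to 11.1 TPM and no gene above the 5.59 TPM of Zbtb46 in Cbfb(wt) 2. Ccr7 reached 2.81 TPM, Flt3 1.42 TPM and Xcr1 0.61 TPM. Of 6 T cell genes 0 were called, and their summed level was 2.43 to 42.9 TPM, with Cd3e, Cd3d, Cd3g and Trac highest in Cbfb(het) 5. Of 4 NK cell genes 2 were called positive, Prf1 and Ncr1, with Prf1 highest in Cbfb(het) 1 at 5.01 TPM and Gzma in Cbfb(wt) 3 at 7.49 TPM. Of 8 activation genes 2 were called positive, Il6 and Ptgs2, and 1 negative, Tnf; Ptgs2 was highest in Cbfb(wt) 2 at 179 TPM, and Vegfa, which was not called, in Cbfb(het) 14 at 365 TPM. The 8 epithelial genes, Epcam included, had 5 called with a negative r and 0 with a positive one.

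The 5 osteoclast genes tested were each highest in Cbfb(het) 1, the tumor with the most Cd68. Ctsk, which encodes cathepsin K, was 760 TPM there and 4.15 to 239 TPM in the other 17 tumors, and Acp5, the tartrate-resistant phosphatase gene, was 1050 TPM against 87.6 to 282 TPM. Oscar was 13.5 TPM in Cbfb(het) 1 against 1.55 TPM or less, and Ocstamp 17.97 TPM against 2.46 TPM or less. Dcstamp was 17.56 TPM in Cbfb(het) 1, against 12.01 TPM in the high-Epcam tumor Cbfb(het) 13. The calcitonin receptor gene Calcr, which did not pass the filter, was highest in Cbfb(het) 12 at 0.41 TPM and was 0.18 TPM in Cbfb(het) 1. For Gpnmb, the melanocyte genes were measured beside it: Tyr was 0.01 TPM or less, Tyrp1 0.11 TPM or less, Dct 0.76 TPM or less, Pmel 1.19 TPM or less and Mlana 1.32 TPM or less in every tumor. Mitf, a transcription factor gene that macrophages and osteoclasts also express, was 1.72 to 9.59 TPM, highest in Cbfb(wt) 2, where Gpnmb was lowest, and the part of these cells in Gpnmb was not tested.

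S100a8, a calcium-binding protein gene listed for neutrophils, was low in the 3 tumors of lowest Arg1 but not in these alone. It was 197 TPM in Cbfb(het) 1, 13.2 TPM in Cbfb(het) 12 and 260 TPM in Cbfb(wt) 2, against 213 to 5126 TPM in the other 15, so the values overlapped. S100a9 was likewise lowest in Cbfb(het) 12 at 21.4 TPM and highest in Cbfb(het) 9 at 5123 TPM. Other neutrophil genes did not share this pattern: Csf3r was 21.6 TPM in Cbfb(het) 1, 10.97 TPM in Cbfb(het) 12 and 29.4 TPM in Cbfb(wt) 2, its highest. Cxcr2 was 9.04 TPM in Cbfb(het) 1 and 11.9 TPM in Cbfb(wt) 2, and lowest in Cbfb(het) 12 at 1.1 TPM. Retnlg was 26.2 TPM in Cbfb(het) 1, 1.27 TPM in Cbfb(het) 12 and 29.9 TPM in Cbfb(wt) 2. Ly6g was 1.29, 0.07 and 1.59 TPM in these 3 tumors. The mean log2 CPM over the 6 neutrophil genes was 3.83 in Cbfb(het) 1, 0.42 in Cbfb(het) 12 and 3.95 in Cbfb(wt) 2, beside a median of 3.86 over all tumors. In Cbfb(het) 13, which had the highest Arg1, S100a8 was 3858 TPM, and in Cbfb(het) 5, which had the lowest Arg1 of the high-Epcam tumors, it was 272 TPM. Ly6g was 0.26 TPM in Cbfb(het) 13 and 0.29 TPM in Cbfb(het) 5, and Retnlg was 13.65 and 8.08 TPM. The epithelial keratin gene Krt14 was 121 and 189 TPM in Cbfb(het) 1 and 12 and 780 TPM in Cbfb(wt) 2, and 346 to 10567 TPM in the others, and Krt5 was also lowest in Cbfb(het) 12 at 49.3 TPM. The luminal keratin gene Krt8 ran otherwise, at 14.3 and 16.2 TPM in Cbfb(het) 10 and 14, against 248 TPM in Cbfb(het) 1, 330.4 TPM in Cbfb(het) 12 and 79.3 TPM in Cbfb(wt) 2, where Arg1 was lower. Cldn3, a tight junction gene, spanned 1.15 TPM in Cbfb(wt) 2 to 312 TPM in Cbfb(het) 7. Which cells held the Arg1 transcripts was not tested.

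By likeness over the 18 tumors, among the 13074 genes that averaged 1 or more on the log2 CPM scale, Arhgap30, Inpp5d, Tlr1, Was and Adgre1 were most like Csf1r, each with r = 0.97. In the same ranking Ccr2 stood at 125, Trem2 at 145, Mrc1 at 180, Cx3cr1 at 255, Cd68 at 445, Cd163 at 2821, Gpnmb at 11215 and Arg1 at 12545. The genes most like Arg1 were Jup and Trpv3 at r = 0.92, Atg9b at 0.92, and Ankrd22 and Nbeal2 at 0.91. Jup, which encodes plakoglobin of epithelial cell junctions, spanned 65.3 to 507 TPM. Those most like Gpnmb were Ccdc8, Stra6l, Piwil2, Id4 and Tshz2, with r from 0.84 to 0.85, and none of these exceeded 16.4 TPM. All these r values are over the same 18 tumors and share the 3 tumors of high Csf1r, and they are given as a description.

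Within the 13 high-Epcam tumors Mrc1, Cd163 and Ccr2 varied together, a relation looked at after these values were seen. The p-values and calls against Mrc1 therefore describe these data and are no separate support for the relation. Cbfb(het) 3 had the most of all 3 genes, with 55.7 TPM of Mrc1, 14.1 TPM of Cd163 and 17.5 TPM of Ccr2. Cbfb(het) 5 followed for Mrc1 and Ccr2, at 26.6 and 14.4 TPM, and Cbfb(het) 9 for Cd163, at 4.08 TPM. Against Mrc1, Cd163 had r = 0.97 (permutation, adjusted p = 0.00925; rho = 0.96, adjusted p = 0.0206) and Ccr2 r = 0.88 (permutation, adjusted p = 0.0158; rho = 0.85, adjusted p = 0.0681), 2 of 9 members called beside 1.36% of 18492 genes. Csf1r had r = 0.74 (permutation, adjusted p = 0.148) and Cx3cr1 r = -0.17 (permutation, adjusted p = 0.835). Without the 2 tumors farthest from the median Mrc1 level 0 of 18492 genes were called by either measure, 2030 had an unadjusted permutation p under 0.05 by Pearson's r, and Cd163 had r = 0.94 (permutation, adjusted p = 0.123).

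Of 8 genes listed for tissue-resident macrophages, 4 were highest in the same tumor: Lyve1, Timd4, Cd209f and Clec10a. In Cbfb(het) 3, Lyve1 was 26.5 TPM, Cd209f 65.9 TPM and Clec10a 115.9 TPM, against at most 10.4, 21.3 and 38.8 TPM in the other 17 tumors. Of the 8 genes of this list 5 were called against Mrc1 in the 13 tumors, all with a positive r, beside 1.36% of all genes. The median r over the list was 0.88, and these calls share the choice of Mrc1 made after its values were seen. Folr2 was 70.1 TPM in Cbfb(het) 3 and 75.7 TPM in Cbfb(het) 1, its highest. The 2 most abundant genes of the list peaked elsewhere, Cbr2 in Cbfb(het) 13 at 811 TPM and Gas6 in Cbfb(het) 14 at 323 TPM, and so did Maf, in Cbfb(wt) 2 at 42.9 TPM; these 3 were not called against Mrc1. Retnla, known from macrophages exposed to interleukin 4 and from fat, reached 598 TPM in Cbfb(het) 3, 235 TPM in Cbfb(het) 9 and 141 TPM in Cbfb(het) 5, and was 0.30 TPM in Cbfb(wt) 2.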

How the data were processed

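RNA was extracted with Trizol from 18 mouse mammary tumors, and libraries were made with a stranded mRNA kit, per the labels' protocols. The submitters' processing notes name the aligner STAR 2.7.0f, RSEM 1.3.1 for quantification, and mm10 as genome. For annotation release and strand setting, nothing is stated in the labels, and all 55450 gene IDs occur in GENCODE M21. The authors deposited, per the file headers, expected counts, TPM and FPKM for each tumor as RSEM gives them. The FPKM values were left aside. The expected counts were rounded before testing, since 6.20% to 7.19% of them per tumor were not whole, which left 33210239 to 40974166 counts per tumor.

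The TPM values deposited by the authors were used unchanged for levels and for ratios between genes. From the rounded counts, log2 CPM was computed (TMM, prior count 2) after edgeR's filterByExpr, which left 18494 genes. Genotype was tested with edgeR 4.0.16 (quasi-likelihood test; R 4.3.3) on 14 Cbfb(het) and 3 Cbfb(wt) tumors, with limma 3.58.1 for values relative to Csf1r, and with DESeq2 1.42.0 and limma-voom as alternatives. The single Cbfb(homo) tumor entered no genotype test. The SE given with edgeR was derived, as the absolute log2 fold change over the square root of the F statistic. Relations over tumors used two-sided permutation tests with 100000 resamples on every gene (Python 3.11.15, numpy 2.4.6, scipy 1.17.1). Tumors separated from the others by a gap of over 2 on the log2 scale of the x axis were left out, and a gap of 1.5 was the alternative. All p-values were adjusted by the Benjamini-Hochberg method over all genes tested, 3 planned relations were computed, and the threshold was 0.05. The tests were checked on simulated data. Each p-value takes the tumors entered as independent samples, which was not tested for Cbfb(het) 10 and 14.

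The members and the gene lists were chosen with earlier results of these data known. The rule for genes named covered the members, Epcam, the 5 genes of highest r with Csf1r, Arg1 and Gpnmb, and in each list the 2 of highest mean TPM and the 2 of widest range; other genes, and the relation to Mrc1, were chosen after their values were seen. Against Csf1r over 18 tumors, 0 T cell, 0 melanocyte, 2 osteoclast and 1 neutrophil genes were called, beside 23.2% of all genes. The neutrophil gene had a negative r. Cx3cr1 shares 78 exonic bases with Gm33858 (mean 0.139 TPM) on the other strand.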

Additional observations from a re-analysis of the deposited data

How the results depend on the processing

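No paired analysis was possible because the labels give every tumor the same repeat number, and numbers given in accession order only name a tumor. Of the members, 2 were called against Epcam, and the count was 0 on log2(TPM + 1), 0 with the gap of 1.5, 1 in Cbfb(het) tumors alone, 6 without the 2 farthest tumors, and 1 without either Cbfb(het) 10 or Cbfb(het) 14, where Arg1 lost its call (adjusted p = 0.0577 and 0.0584, permutation). Against Csf1r the count of 7 was 1 in the 13 high-Epcam tumors and 0 there without the 2 farthest, both added after seeing the data, and lay between 5 and 7 in the other settings. Over all genes the share called against Csf1r was 6.71% in Cbfb(het) tumors alone, 25.6% without Cbfb(het) 10 and 26.1% without Cbfb(het) 14. Relative to Csf1r the count of 1 against Epcam was 0 on log2(TPM + 1), 0 with the gap of 1.5, 3 without the 2 farthest and 2 without either Cbfb(het) 10 or 14. Against Mrc1 the count of 2 was 7 over all 18 tumors and 0 without the 2 farthest. By genotype the count of members was 0 in every setting run, and without a filter 1 gene of all those tested, Tex11, was called; DESeq2 gave no p for Csf1r. Over all genes the share called against Epcam was 26.5% on log2(TPM + 1), 37.4% in Cbfb(het) tumors alone and 26.2% to 26.6% without Cbfb(het) 10 or 14; relative to Csf1r it was 3.28% on log2(TPM + 1) and 37.5% to 38.3% without either tumor, and against Mrc1 over 18 tumors it was 20.6%. The cause was not tested for any of these.

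Values that turned in sign, none of them called, were as follows. With Epcam as covariate the log2 fold change of Cbfb(het) over Cbfb(wt) was 0.31 for Csf1r, 0.15 for Adgre1, 1.36 for Mrc1, 0.036 for Trem2 and 1.41 for Ccr2. In the 13 high-Epcam tumors, added after seeing the data, it was 0.31 for Csf1r, 0.23 for Adgre1, 1.55 for Mrc1, 0.26 for Trem2 and 1.70 for Ccr2, and relative to Csf1r it was -0.32 for Cd68. With limma-voom it was -0.039 for Cd68 and 0.10 for Ccr2. Leaving out each Cbfb(wt) tumor, Cbfb(het) 10 or Cbfb(het) 14 in turn gave -1.35 to 0.92 for Csf1r, -1.20 to 0.67 for Adgre1, -0.22 to 0.50 for Cd68, -1.34 to 2.40 for Mrc1, -1.01 to 0.50 for Trem2, -1.71 to 0.26 for Cx3cr1 and -1.23 to 2.41 for Ccr2. Relative to Csf1r it gave -0.22 to 0.021 for Adgre1, -0.34 to 0.71 for Cd68, -0.055 to 0.89 for Mrc1, -0.14 to 0.48 for Trem2, -0.77 to 2.28 for Arg1, -0.0096 to 0.98 for Ccr2 and -0.25 to 3.13 for Gpnmb.

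Against Epcam with the gap of 1.5, r was -0.088 for Arg1 and 0.028 for Ccr2, and relative to Csf1r it was -0.086 for Adgre1, 0.091 for Cd68, 0.087 for Mrc1 and -0.25 for Gpnmb. Without the 2 farthest tumors r was 0.55 for Gpnmb against Epcam and 0.065 for Gpnmb against Csf1r, and relative to Csf1r it was 0.46 for Cd68, 0.34 for Cd163 and -0.26 for Ccr2. Without Cbfb(het) 10 or 14, r with Epcam was 0.085 to 0.10 for Gpnmb, and relative to Csf1r it was 0.085 to 0.10 for Cd68 and -0.12 to -0.028 for Ccr2. Against Csf1r in the 13 high-Epcam tumors r was 0.040 for Arg1 and 0.58 for Gpnmb, and 0.34 for Gpnmb without the 2 farthest of these. Relative to Adgre1 in place of Csf1r, added after seeing the data, r with Epcam was -0.034 for Trem2, -0.089 for Cx3cr1 and -0.19 for Ccr2. Against Mrc1 over all 18 tumors r was 0.51 for Cx3cr1 and -0.43 for Gpnmb.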
